A study of Mus musculus with 29 samples.

Results

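The 10 transcripts described here encode enzymes that detoxify superoxide, peroxides and reactive quinones or break down heme. They are Gpx1, Gpx3, Gpx4, Sod1, Sod2, Sod3, Cat, Prdx6, Nqo1 and Hmox1, a named group of genes found by gene ID in a table of 22779 gene IDs. The group was chosen with earlier results of these data known, so its counts beside those of all genes are descriptions. All 10 had an expression value in the table, and all 10 were among the 14616 genes that passed the filter on low values and were tested. The table comes from alveolar septa, the walls between airspaces, cut by laser capture microdissection from frozen lung sections of 29 wild type C57BL/6 mice. Each library is 1 animal, with 2 animals at each of 15 ages from E16.5 to P28 except P28, which has 1. The mice received no treatment, and the ages form 4 stage groups. The prenatal group holds the 4 embryos of E16.5 and E18.5, and the postnatal saccular group the 8 pups aged P0.5 to P2.5. The early alveolar group holds the 8 pups aged P4 to P10, and the late alveolar group the 9 aged P13.5 to P28. The age of the 2 E18.5 embryos rests on their sample labels alone, since the design text of the series leaves that age out, and results that use them carry this doubt.

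Superoxide dismutases convert superoxide to hydrogen peroxide, and each form works in its own place, Sod1 in the cytosol, Sod2 in the mitochondrial matrix and Sod3 outside the cell, bound to the matrix. Hydrogen peroxide is then removed by catalase in peroxisomes and by peroxidases that draw on glutathione. At birth the lung passes from the low oxygen of the womb to air, and antioxidant enzymes of the lung are known to rise around that time in several mammals.

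Transcripts for both secreted enzymes of the group, Gpx3 and Sod3, rose from early to late alveolar septa, together with Prdx6. These rises passed the test at an adjusted p under 0.05. No stage difference of Gpx1, Gpx4, Sod1, Sod2, Cat, Nqo1 or Hmox1 did. Gpx4, Cat and Sod2 were higher in late than in early alveolar septa by log2 fold changes of 0.79, 0.46 and 0.40, without passing the test. By limma each had an unadjusted p under 0.05, with adjusted p of 0.150, 0.146 and 0.168. The share of all genes at that unadjusted threshold is not given. The late means of Gpx4 and Sod2, 32.5 and 12.8 FPKM, were below their prenatal means of 42.6 and 13.1 FPKM. That of Cat, 135 FPKM, was above its prenatal mean of 105 FPKM. Whether secreted and intracellular enzymes differed as classes was not tested. Gpx3 averaged 26.9 ± 10.5 FPKM (SD, n = 8) in early alveolar and 207 ± 68.8 FPKM (SD, n = 9) in late alveolar septa. Sod3 also differed between prenatal and postnatal saccular septa, lying between 0 and 1.73 FPKM before birth and between 3.08 and 18.0 FPKM after it. FPKM, a fragment count divided by transcript length and by the size of the library, corrects for transcript length, so levels can be set side by side between genes.

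Some features of the whole table touch these values. Read depth is unknown, since only FPKM were given, and total FPKM per library ranged from 318176 to 457706, with 10114 to 13059 genes at an FPKM of 1 or more. Of 8623 broadly expressed protein-coding genes, P19 pup d has 578 listed at 0, P10 pup a 416 and P19 pup f 242, against at most 112 in any other library, so a 0 can be a failed estimate. The tests of the members were repeated without these 3 libraries, called rich in zeros from here on. Results for the redox lists and the cell type markers are given with all 29 libraries only. Xist and Y-linked transcripts went against the labelled sex in 14 of 29 libraries, and sex was therefore not used. At 3 of the 8 ages labelled with 1 female and 1 male, both animals differed from the label. The cause was not tested, and results that name single animals carry this doubt. Markers of alveolar type 2, alveolar type 1 and endothelial cells were present in every library, as the labelled tissue requires, with Sftpc at 2066 FPKM or more, Ager at 20.9 FPKM or more and Pecam1 at 110 FPKM or more. The club cell marker Scgb1a1 was also found in every library, from 3.62 to 5143 FPKM, although the capture aimed to leave bronchi out.

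Gpx1, Gpx3 and Gpx4 share a feature that no other member has. Their active site holds selenocysteine, an amino acid encoded by a UGA codon that elsewhere means stop. The GENCODE M21 annotation of GRCm38 (mm10) marks such a codon in 3 of the 10 members. The coding sequence around it is given here because it defines the selenium-dependent enzymes of the group, with the selenocysteine codon in capitals and 21 bases on each side.
Gpx1: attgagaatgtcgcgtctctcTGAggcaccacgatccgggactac
Gpx3: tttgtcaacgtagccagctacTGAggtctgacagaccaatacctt
Gpx4: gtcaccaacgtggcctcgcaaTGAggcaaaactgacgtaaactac
All 3 lie on the plus strand within a coding exon. The Gpx1 stretch is chr9:108339430-108339474 in exon 1 of 2 and its selenocysteine is codon 47. For Gpx3 it is chr11:54907235-54907279 in exon 2 of 5 with the selenocysteine at codon 73, and for Gpx4 it is chr10:80054716-80054760 in exon 3 of 7, also at codon 73. Over these 45 bases Gpx1 and Gpx3 have 21 identical bases, Gpx1 and Gpx4 25, and Gpx3 and Gpx4 24. Gpx4 has processed pseudogenes in the mouse and Prdx6 has a close retrogene copy, Prdx6b, and the levels of these 2 members are uncertain to the extent that reads were divided between copies.

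RefSeq promoter windows of 250 bases before and 50 bases after the start of transcription (GRCm38.p6) were available for 7 of the members. Those of Gpx3 and Nqo1 are printed here. Gpx3 had the largest log2 fold change of the members from early to late alveolar. Nqo1 is the classical target of the oxidant-responsive factor Nrf2, and its highest value was that of 1 prenatal library, E16.5 embryo 2. Capitals mark GGGCGG (the GC box) and TATAAA (the TATA box), searched on both strands.
Gpx3: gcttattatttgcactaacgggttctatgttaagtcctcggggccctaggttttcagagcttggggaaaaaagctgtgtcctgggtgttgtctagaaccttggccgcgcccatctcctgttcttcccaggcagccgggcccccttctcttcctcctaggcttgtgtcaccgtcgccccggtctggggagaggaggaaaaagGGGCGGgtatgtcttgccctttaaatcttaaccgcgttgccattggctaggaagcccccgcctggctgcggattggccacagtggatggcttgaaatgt
Nqo1: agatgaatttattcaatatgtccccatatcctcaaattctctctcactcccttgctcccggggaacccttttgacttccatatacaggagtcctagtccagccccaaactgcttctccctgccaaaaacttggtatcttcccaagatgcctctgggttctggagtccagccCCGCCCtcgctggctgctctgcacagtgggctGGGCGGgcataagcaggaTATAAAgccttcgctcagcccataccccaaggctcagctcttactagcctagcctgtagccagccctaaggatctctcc
The Gpx3 window is chr11:54902604-54902903 on the plus strand and holds 1 GC box beginning at base -49, counted from the start site. The Nqo1 window is chr8:107403156-107403455 on the minus strand and holds GC boxes at bases -79 and -47 and a TATA box at base -29. None of these matches overlaps another. A GC box occurs in 35.7% and a TATA box in 13.6% of all 32851 mouse windows of this length. The core of the antioxidant response element, TGACNNNGC, to which Nrf2 binds, occurs in 12.4% of all windows. ACGTG, the core to which hypoxia-inducible factors bind, occurs in 19.6% of all windows, and of the 7 members it was found in the window of Gpx1 alone, beginning at base -183. Among the windows of Cat, Gpx1, Gpx3, Gpx4, Nqo1, Sod1 and Sod2 the antioxidant response core was found in that of Sod1 alone, with 1 match beginning at base -56, and elements farther from the start lie outside the windows.

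By median FPKM over the 29 libraries Cat was the most abundant member at 122 FPKM, followed by Sod1 at 108, Gpx1 at 73.4, Prdx6 at 60.8, Gpx3 at 53.8, Gpx4 at 29.6, Sod2 at 11.5, Sod3 at 8.80, Hmox1 at 8.38 and Nqo1 at 1.71 FPKM. Cat stood above 98.2% and Nqo1 above 17.1% of the 14034 genes with a median above 0. The ranges of neighbours in this order overlapped throughout, and the order changed with age, with Gpx3 above Cat in 7 and Prdx6 above Cat in 2 of the 9 late alveolar libraries. The members also differed in how much they varied. The SD of Gpx1 over all 29 libraries was 0.53 on the scale of log2(FPKM + 1), no larger than the 0.60 between the 2 animals of the same age. For Sod3 these values were 1.98 and 0.61, for Gpx3 1.41 and 0.70, and for Prdx6 0.87 and 0.38.

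**Figure D1:**
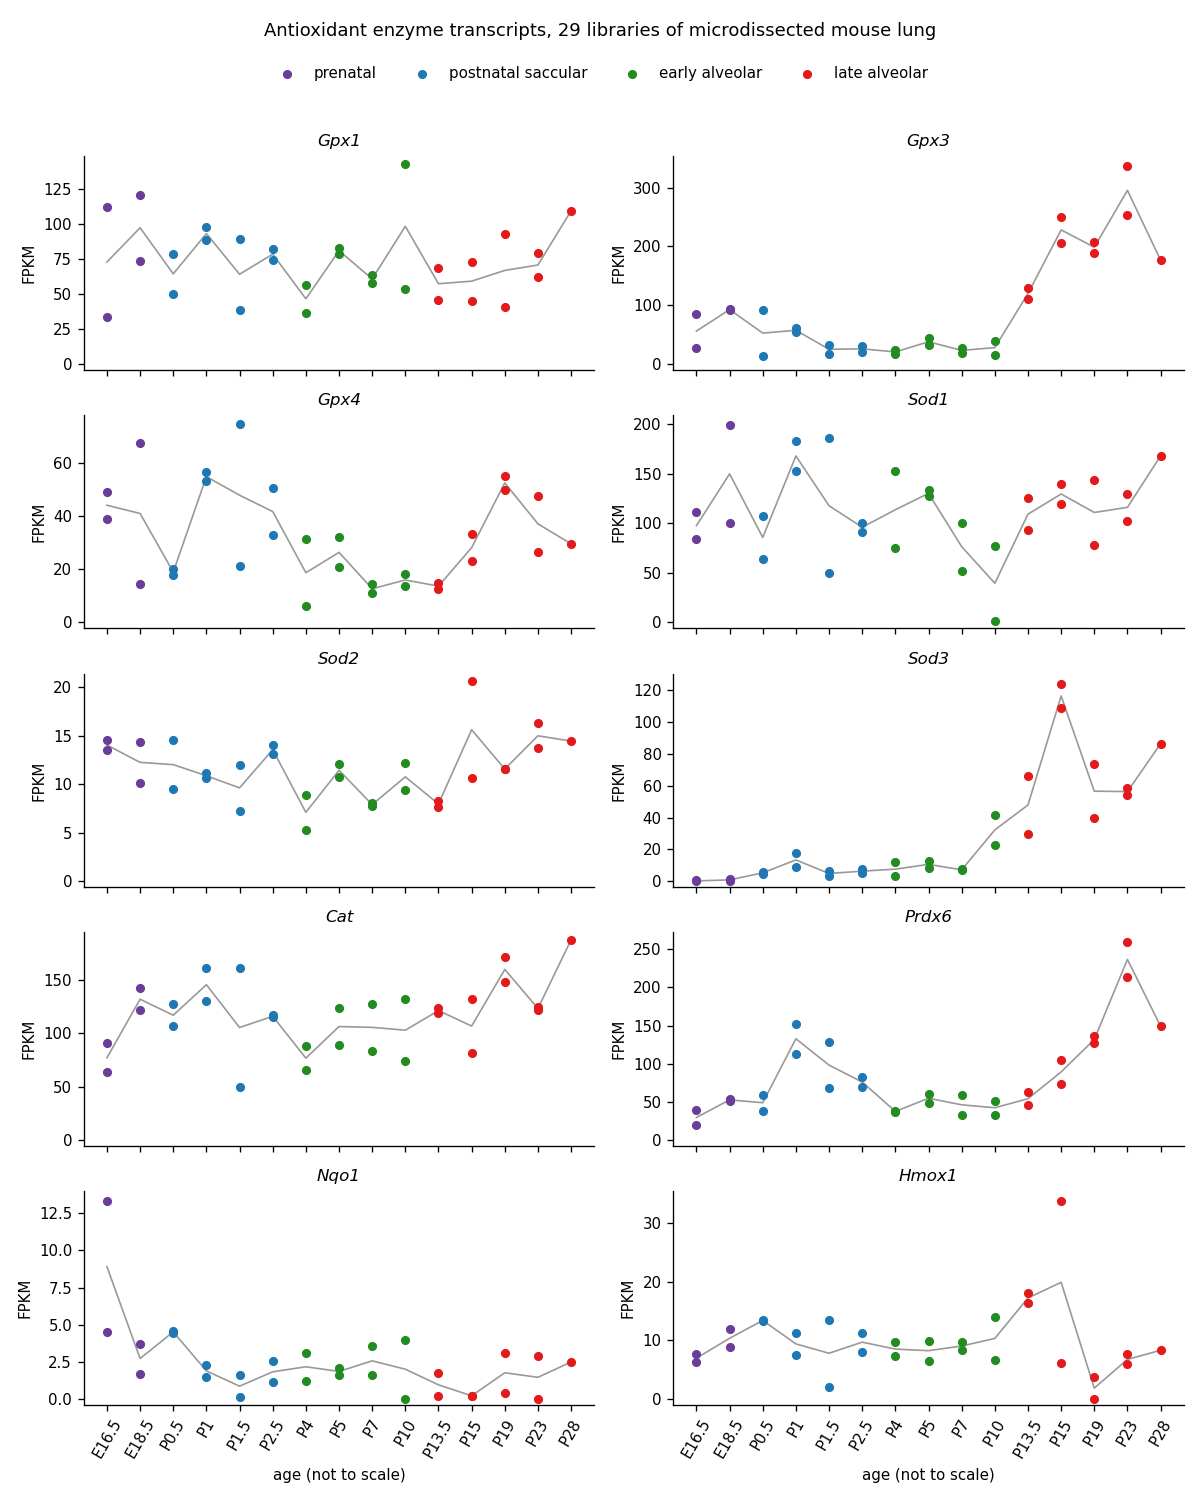
FPKM of each member (vertical axes from 0, scaled per gene) in each of the 29 libraries by age (horizontal axis, not to scale), coloured by stage group, with a grey line through the mean of each age. Gpx3 lies between 13.3 and 93.0 FPKM up to P10 and between 111 and 338 FPKM from P13.5, while Gpx1, Sod1 and Cat show no comparable step.

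The paper places E16.5 in the early canalicular and E18.5 in the early saccular stage. The prenatal group thus mixes stages, so its comparison with postnatal saccular septa cannot separate birth from the canalicular to saccular change. That comparison called 2327 of all genes, and 868 against the 2 E18.5 embryos only, a test with fewer embryos. Calls after birth, as worded below, refer to that comparison. The 3 stage comparisons ask how the septa changed from before to after birth, at the onset of septation and as septation ended. In each, the later group was compared with the earlier one by limma on log2(FPKM + 1), with p adjusted over all 14616 genes and a gene called at an adjusted p under 0.05. From prenatal to postnatal saccular, 2 members were called higher and 0 lower, where 9.11% of all genes were called higher and 6.81% lower, and 1 member, Gpx3, was lower at an unadjusted p under 0.05. From postnatal saccular to early alveolar, 0 were called higher and 0 lower, against 0.527% and 0.937% of all genes, with 2 members, Gpx4 and Prdx6, lower at an unadjusted p under 0.05. From early to late alveolar, 3 members were called higher and 0 lower, against 3.89% and 7.47% of all genes. At an unadjusted p under 0.05, 6 members were higher and 0 lower. The percentages of all genes count calls by adjusted p. Their share at an unadjusted p under 0.05 is not given here, so the unadjusted counts in the 3 comparisons have no baseline. The median log2 fold change of the members was -0.06, -0.28 and 0.62 in the 3 comparisons, and that of all genes tested was -0.004, -0.03 and -0.09. Of all genes called between early and late alveolar, 34.2% were higher, and 46.2% were with quantile normalization, while the 3 members were called higher with either.

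**Figure D2:**
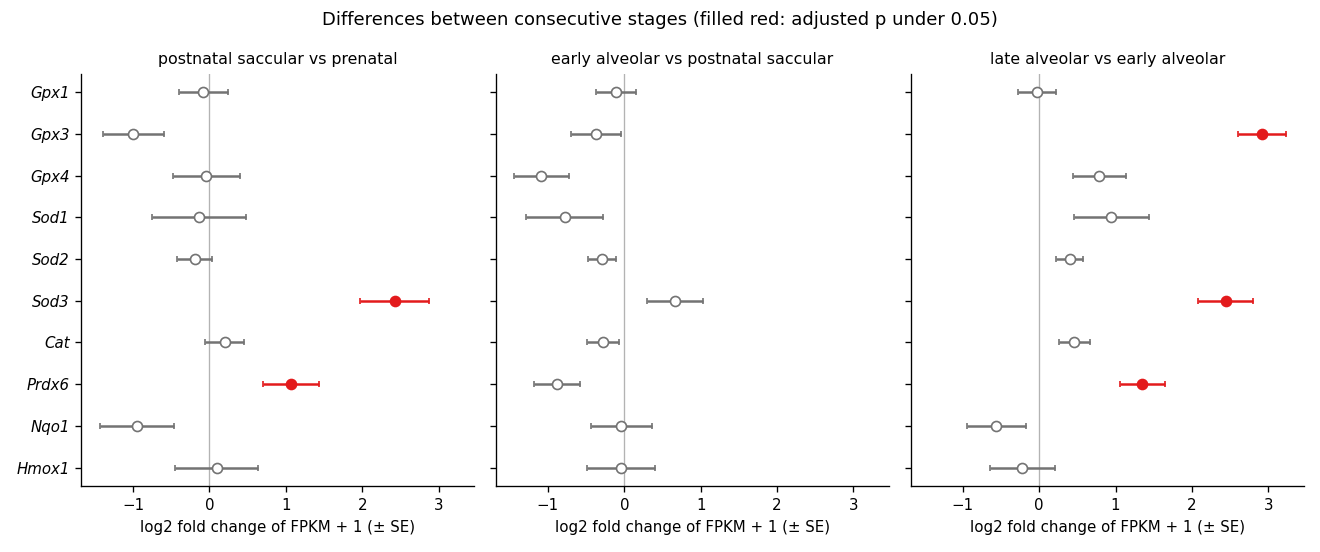
Log2 fold change of FPKM + 1 with its standard error (horizontal axes) for each member in the 3 stage comparisons, with called members as filled red points and the others as open grey points. Sod3 and Prdx6 are called from prenatal to postnatal saccular, and no member is called at the onset of septation. Gpx3, Sod3 and Prdx6 are called at the end, with log2 fold changes of 2.91, 2.44 and 1.35.

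Sod3 (NCBI gene 20657, chr5:52363804-52369738) encodes extracellular superoxide dismutase, which is held on matrix and cell surfaces by heparan sulfate. It was listed at 0 in E16.5 embryo 2 and E18.5 embryo 4, at 0.525 FPKM in E16.5 embryo 9 and at 1.73 FPKM in E18.5 embryo 3. In the 8 postnatal saccular libraries it lay between 3.08 and 18.0 FPKM with a median of 6.25, in the 8 early alveolar libraries between 3.20 and 41.8 with a median of 10.2, and in the 9 late alveolar libraries between 29.5 and 124 with a median of 66.4 FPKM. All 8 postnatal saccular libraries were thus above all 4 prenatal ones. Sod3 was called higher after birth, with a log2 fold change of 2.43 (SE 0.45, adjusted p = 0.000375), and the call held in all 40 alternatives, among them the comparison with E18.5 alone (log2 fold change 2.22, adjusted p = 0.0214). Its size depends on the pseudocount, since the prenatal values lie at or near 0, and was 4.36 with a pseudocount of 0.1. The next step, to the early alveolar group, gave 0.66 (SE 0.37, adjusted p = 0.458) and was not called. Its 2 highest early alveolar libraries were both of P10, pup f at 41.8 and pup a at 22.7 FPKM, and the other 6 were at or below 12.9 FPKM. From early to late alveolar Sod3 was called higher again (log2 fold change 2.44, SE 0.36, adjusted p = 2.62e-05), with 7 of 9 late libraries above all 8 early ones, and at 2.66 (adjusted p = 5.12e-05) without the 3 libraries rich in zeros. The highest age mean was at P15, from libraries of 109 and 124 FPKM.

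Sod1 (NCBI gene 20655, chr16:90220762-90226333), the cytosolic copper and zinc enzyme, was the most abundant dismutase transcript. It averaged 124 ± 51.7 FPKM (SD, n = 4) before birth, 117 ± 51.7 (n = 8) in the postnatal saccular, 90.1 ± 49.1 (n = 8) in the early alveolar and 122 ± 27.7 FPKM (n = 9) in the late alveolar group. The groups overlapped at each step, and the log2 fold changes of -0.14 (95% interval -1.40 to 1.13), -0.78 (-1.81 to 0.25) and 0.95 (-0.06 to 1.95) were not called. The wide intervals include P10 pup a, where Sod1 is listed at 1.72 FPKM and all other libraries lay at 49.8 FPKM or more. Without the 3 libraries rich in zeros, the last 2 fold changes were -0.14 and 0.35.

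Sod2 (NCBI gene 20656, chr17:13007839-13018119), the manganese enzyme of mitochondria, ran lower and even. It averaged 13.1 ± 2.04 (SD, n = 4), 11.5 ± 2.42 (n = 8), 9.30 ± 2.34 (n = 8) and 12.8 ± 4.06 FPKM (n = 9) in the order of the stages. None of its stage differences was called. The largest, from early to late alveolar, was 0.40 on the log2 scale (95% interval 0.03 to 0.77, adjusted p = 0.168).

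The make-up of the dismutase family changed accordingly. Sod3 held from 0 to 1.54% of the summed FPKM of the 3 dismutases in the prenatal libraries, 5.52 ± 1.85% (SD, n = 8) in the postnatal saccular and 33.3 ± 7.04% (SD, n = 9) in the late alveolar libraries. In the early alveolar group the share ran from 1.94 to 62.1% with a median of 9.27%. The highest of these values is that of P10 pup a, where Sod1 is nearly absent. The summed FPKM of the family was 138 ± 52.0 (SD, n = 4) before birth and 206 ± 54.6 (SD, n = 9) in late alveolar septa. These shares and sums are descriptions and were not tested.

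**Figure D3:**
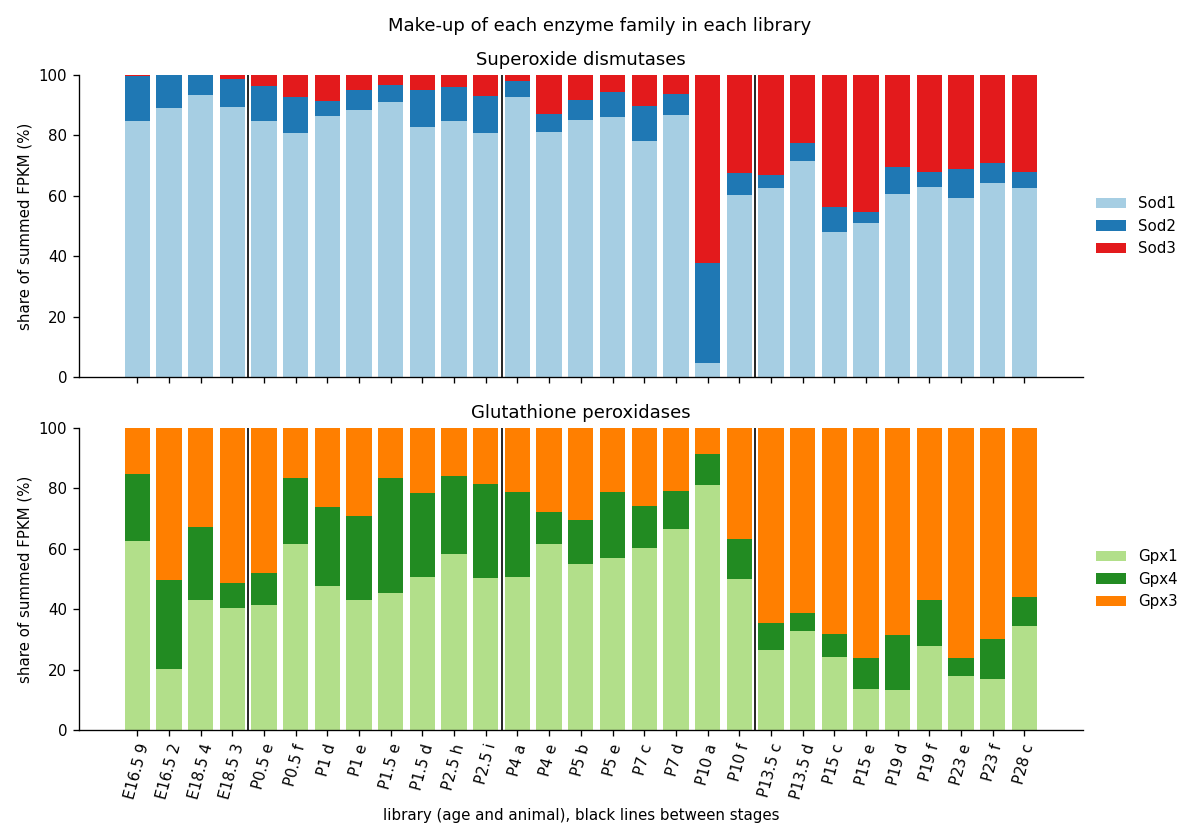
Share of the summed FPKM (vertical axes, percent) that each member takes within the superoxide dismutases (top) and the glutathione peroxidases (bottom) in each library, ordered by age with black lines between the stages. Sod3 takes 22.6 to 45.2% and Gpx3 56.0 to 76.2% in the 9 late alveolar libraries, and P10 pup a stands apart with a Sod1 share of 4.70%.

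Gpx3 (NCBI gene 14778, chr11:54902854-54910387) encodes the secreted glutathione peroxidase of plasma and extracellular fluids. Before birth it stood at 27.5 FPKM in E16.5 embryo 9 and at 83.9, 91.7 and 93.0 FPKM in E16.5 embryo 2 and E18.5 embryos 4 and 3. The postnatal saccular libraries ranged from 13.3 to 91.1 with a median of 31.4, the early alveolar ones from 15.5 to 43.7 with a median of 25.5, and the late alveolar ones from 111 to 338 with a median of 206 FPKM. The 9 late libraries were above all 20 earlier ones. The step lay between P10, at 15.5 and 39.3 FPKM, and P13.5, at 111 and 129 FPKM, and the highest age mean was at P23. The log2 fold change from early to late alveolar was 2.91 (SE 0.32, adjusted p = 2.61e-07), a ratio of means of 7.69, and the call held in all 39 alternatives with values from 2.82 to 3.02. From prenatal to postnatal saccular the log2 fold change was -0.998 (SE 0.40, adjusted p = 0.0883) and not called. Leaving out E16.5 embryo 9 gave -1.42 (adjusted p = 0.0263) and leaving out P0.5 pup e gave -1.20 (adjusted p = 0.0280), both past the threshold.

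Gpx1 (NCBI gene 14775, chr9:108339080-108340342), the cytosolic and most widespread glutathione peroxidase, averaged 84.9 ± 39.9 (SD, n = 4), 74.8 ± 20.4 (n = 8), 71.5 ± 32.4 (n = 8) and 68.4 ± 23.1 FPKM (n = 9) in the 4 stages. Its stage differences were -0.08 (95% interval -0.73 to 0.57), -0.11 (-0.65 to 0.42) and -0.03 (-0.55 to 0.49) on the log2 scale. None was called.

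Gpx4 (NCBI gene 625249, chr10:80047166-80056439), which reduces lipid hydroperoxides within membranes and guards cells from ferroptosis, averaged 42.6 ± 22.1 (SD, n = 4), 40.9 ± 20.9 (n = 8), 18.5 ± 9.23 (n = 8) and 32.5 ± 15.4 FPKM (n = 9). The early alveolar libraries ran from 6.22 to 32.0 FPKM and 5 of 8 postnatal saccular libraries lay above all of them. The log2 fold change of -1.09 (SE 0.36, adjusted p = 0.129) between these groups was not called, and it was called with array quality weights (-1.21, adjusted p = 0.0239).

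Within the glutathione peroxidases, Gpx1 held the largest mean share in the postnatal saccular and early alveolar stages, with 60.2 ± 10.0% (SD, n = 8) in the latter. Before birth Gpx3 was above Gpx1 in 2 of 4 libraries. The prenatal mean shares were 41.6% for Gpx1 and 37.5% for Gpx3, and without E16.5 embryo 9 they were 34.6% and 44.8%, so their order rests on that embryo. In the late alveolar group Gpx3 held 66.4 ± 7.38% (SD, n = 9) and Gpx1 23.1 ± 7.97%. The summed FPKM of Gpx1, Gpx3 and Gpx4 was 117 ± 37.1 (SD, n = 8) in early and 308 ± 79.8 (SD, n = 9) in late alveolar septa.

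Prdx6 (NCBI gene 11758, chr1:161240112-161251210) encodes a peroxiredoxin that reduces phospholipid hydroperoxides and also acts as a phospholipase in the turnover of surfactant lipid. Its level was high at 2 separate times, around P1 and around P23. It stood at 39.0 and 20.2 FPKM in E16.5 embryos 9 and 2 and at 51.0 and 54.3 FPKM in E18.5 embryos 4 and 3. The postnatal saccular libraries ran from 38.4 to 152 with a median of 76.0 FPKM. Both P1 pups, at 152 and 113 FPKM, and P1.5 pup e, at 129 FPKM, were above the rest. P0.5 pups e and f stood at 59.4 and 38.4 FPKM. The P0.5 mean of 48.9 FPKM was no higher than the E18.5 mean of 52.7, and the higher values began at P1. The early alveolar libraries ran from 32.9 to 60.8 with a median of 43.3, and the late ones from 45.4 to 260 with a median of 127 FPKM. In the late group the P13.5 libraries, at 45.4 and 63.0 FPKM, were the lowest, those of P23, at 214 and 260 FPKM, the highest, and P28 stood at 149 FPKM.

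Prdx6 was called higher after birth, with a log2 fold change of 1.06 (SE 0.37, adjusted p = 0.0452). This call is fragile. It was lost in 15 of 40 alternatives, among them the comparison with E18.5 alone (0.62, adjusted p = 0.499). It was also lost on leaving out any of 10 libraries. These were E16.5 embryo 9 (adjusted p = 0.101), E16.5 embryo 2 (0.228), P1 pups d (0.0829) and e (0.0752), P1.5 pups e (0.0807) and d (0.05002), P2.5 pups h (0.0505) and i (0.0622), P5 pup e (0.0501) and P15 pup e (0.0510), with fold changes of 0.77 to 1.10. The difference between the postnatal saccular and the early alveolar group, -0.88 (SE 0.30, adjusted p = 0.147), was not called, although 6 of 8 postnatal saccular libraries lay above all 8 early alveolar ones. It was called in a fit of 15 age groups (adjusted p = 0.00783), with array quality weights (0.0486) and in a fit of these 2 groups alone (0.0489). The rise from early to late alveolar, 1.35 (SE 0.29, adjusted p = 0.00224), held in all 39 alternatives, and 8 of 9 late libraries lay above all 8 early ones.

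Cat (NCBI gene 12359, chr2:103453904-103485153) encodes catalase, which splits hydrogen peroxide in peroxisomes without drawing on glutathione. It averaged 105 ± 34.5 (SD, n = 4), 121 ± 35.1 (n = 8), 98.0 ± 25.9 (n = 8) and 135 ± 31.2 FPKM (n = 9). Its log2 fold changes of 0.20 (95% interval -0.32 to 0.72), -0.27 (-0.70 to 0.15) and 0.46 (0.05 to 0.87, adjusted p = 0.146) were not called. The 2 E18.5 embryos, at 142 and 122 FPKM, stood above the 2 E16.5 embryos, at 90.6 and 63.7 FPKM.

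Nqo1 (NCBI gene 18104, chr8:107388225-107403205), a quinone reductase, and Hmox1 (NCBI gene 15368, chr8:75093618-75100593), heme oxygenase 1, are induced by Nrf2 under oxidant stress and had the lowest median levels of the group. Nqo1 was highest in E16.5 embryo 2, at 13.3 FPKM. The other prenatal libraries were at 4.49, 3.73 and 1.71 FPKM, the postnatal saccular ones from 0.129 to 4.59, the early alveolar ones from 0 to 3.99 and the late alveolar ones from 0 to 3.10 FPKM. None of its stage differences was called. The first was the largest, at -0.95 (95% interval -1.94 to 0.05, adjusted p = 0.198).

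Hmox1 ranged from 6.33 to 11.9 FPKM before birth, from 2.07 to 13.5 in the postnatal saccular and from 6.55 to 14.0 in the early alveolar group, with log2 fold changes of 0.10 (95% interval -1.01 to 1.20) and -0.05 (-0.95 to 0.86) that were not called. In the late alveolar group it spread from a listed 0 in P19 pup d to 33.8 FPKM in P15 pup c, while the other P15 pup stood at 6.05 FPKM. Both P13.5 libraries, at 16.5 and 18.0 FPKM, were above all 20 earlier libraries. The late alveolar difference was -0.22 (SE 0.43, adjusted p = 0.810), and 0.29 (adjusted p = 0.659) without the 3 libraries rich in zeros, so its sign depends on them.

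The 2 prenatal ages were compared on their own, with 2 embryos each. No member was called in limma's fit of 15 age groups, where 2.52% of all genes were called higher and 2.00% lower at E18.5, and 1 member, Prdx6, had an unadjusted p under 0.05 (log2 fold change 0.88, SE 0.36, adjusted p = 0.191). Cat, Prdx6, Gpx3 and Hmox1 were higher in both E18.5 embryos than in both E16.5 embryos and Nqo1 was lower in both. With 2 embryos an age, these orders are descriptions. The share of all genes that separate in this way, or that have an unadjusted p under 0.05, is not given here. Markers of other cells moved between the same embryos. The summed FPKM of 6 heart muscle markers was 1137 and 2254 in E16.5 embryos 9 and 2 and 38.1 and 118 in E18.5 embryos 4 and 3. That of 7 alveolar type 1 markers was 160 and 140 at E16.5 and 914 and 933 at E18.5. Their part in these orders was not tested.

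A test over age as a continuous scale, limma's F test of a spline on log2 days since conception, called 4 members where 30.7% of all genes were called. They were Sod3 (F = 44.6, adjusted p = 1.29e-08), Gpx3 (F = 17.0, adjusted p = 3.67e-05), Prdx6 (F = 13.3, adjusted p = 0.000196) and Nqo1 (F = 4.37, adjusted p = 0.0404). The first 3 were called in all 39 alternatives. The Nqo1 call was lost in 14 of 38, including the test of postnatal libraries alone (adjusted p = 0.423) and the one without E16.5 embryo 2 (0.224). It was also lost without E16.5 embryo 9 (0.0747), E18.5 embryo 4 (0.0625), P0.5 pups e (0.0617) and f (0.0596), P10 pup a (0.0550), P13.5 pup c (0.0588), P15 pups c (0.0571) and e (0.0591) or P19 pup d (0.0514). Gpx4 was not called (F = 3.04, adjusted p = 0.107), and was called without P28 pup c (adjusted p = 0.0430).

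Cell type markers are given here where their summed FPKM did not overlap between the stages of a call, or where it correlated with Gpx3, Sod3 or Prdx6 at 0.5 or more in size. In septa cut as tissue, more cells of a type and more RNA per cell cannot be told apart. The summed FPKM of 6 smooth muscle markers, all detected in every library with Acta2 and Tagln the highest by median, ran from 335 to 654 in early and from 146 to 261 in late alveolar libraries, without overlap. Over the 29 libraries its Pearson correlation with Gpx3 on the log2 scale was -0.81. The summed FPKM of 6 lymphocyte markers ran from 7.38 to 23.5 in early and from 32.5 to 93.0 in late alveolar libraries, and its correlation was 0.75 with Sod3 and 0.56 with Gpx3. Among these lymphocyte markers Cd3d was at 0 in 13 and Cd3e in 9 of the 29 libraries. The 8 alveolar type 2 markers summed to 2250 to 17302 FPKM before birth, 8856 to 22357 in the postnatal saccular, 6161 to 14240 in the early alveolar and 7804 to 22944 in the late alveolar libraries, and correlated at 0.73 with Prdx6. The 7 endothelial markers, at 295 to 702 FPKM before birth and 721 to 1091 in the postnatal saccular group, correlated at 0.71 with Sod3 and 0.56 with Prdx6. Their sums were 295 and 395 FPKM at E16.5 and 702 and 613 at E18.5. The 7 alveolar type 1 markers also did not overlap between these 2 groups, with sums of 140 to 933 and 942 to 1664 FPKM. Their sums were 160 and 140 FPKM at E16.5, 914 and 933 at E18.5 and 1116 and 942 at P0.5, so E18.5 lay close to P0.5. They correlated at 0.63 with Prdx6. The 6 neutrophil markers did not overlap either, at 50.2 to 149 before and 213 to 601 FPKM after birth, and Elane was at 0 in all 29 libraries. The 4 erythroid markers were lower after birth without overlap, at 50.7 to 105 and 4.96 to 41.3 FPKM. The 5 ciliated cell markers correlated at 0.60 with Prdx6. With Sod3 the 3 mesothelial markers correlated at -0.64 and the 6 heart muscle markers at -0.56, the latter with sums of 38.1 to 2254 FPKM before birth and 21.7 to 470 in the postnatal saccular libraries. The 4 club cell markers had medians of 683, 2611, 1767 and 4089 FPKM in the 4 stages and correlated at 0.64 with Sod3 and 0.48 with Prdx6. Other members reached 0.5 in size as well, Cat with alveolar type 2 (0.65) and ciliated cell markers (0.64) and Hmox1 with neutrophil (0.54) and macrophage markers (0.51). So did Sod1 with macrophage (0.52) and Nqo1 with endothelial markers (-0.52). The points of all these correlations share libraries, ages and normalization, so they are given without a p. The part of these cell types in the results was not tested.

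**Figure D4:**
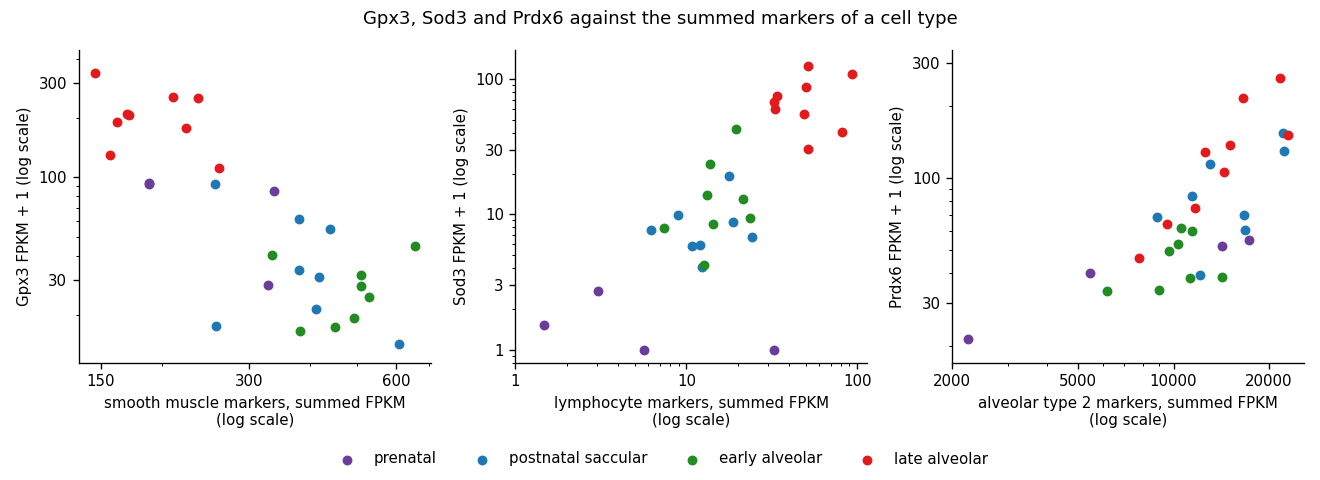
FPKM + 1 of Gpx3, Sod3 and Prdx6 (vertical axes, log scale) against the summed FPKM of smooth muscle, lymphocyte and alveolar type 2 markers (horizontal axes, log scale) in the 29 libraries, coloured by stage group. The 9 late alveolar libraries lie at smooth muscle sums of 146 to 261 and Gpx3 values of 111 to 338 FPKM, and they lie to the right of all early alveolar libraries on the lymphocyte axis.

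Genes whose pattern over the 29 libraries was most like that of each member were sought among 9017 genes with a mean of at least 5 FPKM. For Gpx3 the closest was Tgm2, a transglutaminase (Pearson r = 0.91). For Sod3 they were Sema3c, a secreted semaphorin (0.93), and Tmcc3 (0.91), and for Prdx6 Bmpr2, the type 2 receptor of bone morphogenetic proteins (0.88), and Jade2 (0.87). Sod1 was most like Ndufa2, a subunit of respiratory complex I (0.91), and Bccip (0.89). Without P10 pup a, which is listed at 1.72 FPKM of Sod1, these values were 0.53 and 0.68. Hmox1 was most like Mob3a (0.85) and Neurl1a (0.77), and Nqo1 like Stxbp4 (0.75) and Armh4 (0.72). Hmox1 is listed at 0 in P19 pup d and Nqo1 in P10 pup a, and these matches were not recomputed without those libraries. Cat was most like Jam2, an endothelial junction protein (0.75), and Ccdc91 (0.75). Gpx1, with Tmem159 (0.74) and Sowahc (0.70), Sod2, with Map2k1 (0.71) and Mbnl1 (0.71), and Gpx4, with the ribosomal protein gene Rpl9 (0.70) and Capn2 (0.69), had no closer match. Among the members themselves the correlations ran from -0.56 for Sod3 with Nqo1 to 0.63 for Cat with Prdx6.

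The wider redox network was followed in 12 lists with 145 tested genes. Calls after birth in these lists are given against E16.5 and E18.5 together, and those against E18.5 alone are not given here. The summed heart muscle markers were 1137 and 2254 FPKM in E16.5 embryos 9 and 2. They were 38.1 and 118 FPKM in E18.5 embryos 4 and 3, and their part in these calls was not tested. By limma 6 of them (4.14%) were called higher and 11 (7.59%) lower after birth, against 9.11% and 6.81% of all genes. At the onset of septation 0 and 1 (0.690%) were called, against 0.527% and 0.937%, and in late alveolar septa 9 (6.21%) and 6 (4.14%), against 3.89% and 7.47%. At an unadjusted p under 0.05 these counts were 18 and 20, 5 and 16, and 20 and 12. The share of all genes at that threshold is not given here. Nrf2 and its regulators were the list with most calls after birth. Of 10 tested, 4 were called higher and 0 lower from prenatal to postnatal saccular. They were Mafk, a small Maf partner of Nrf2 (7.20 ± 2.48 FPKM, SD, n = 4, to 18.6 ± 4.98, n = 8, adjusted p = 0.000155), Nfe2l1, a related factor (43.1 ± 14.3 to 75.4 ± 8.68, adjusted p = 0.00220), the adaptor Sqstm1 (72.4 ± 14.2 to 101 ± 14.8, adjusted p = 0.0336) and Keap1, which holds Nrf2 in check (9.84 ± 5.22 to 15.9 ± 4.73, adjusted p = 0.0432). In late alveolar septa 2 were called higher, Sqstm1 again and Nfe2l2, the gene of Nrf2 itself (36.6 ± 10.9, n = 8, to 55.4 ± 16.2 FPKM, n = 9, adjusted p = 0.0422).

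Of 13 other targets of Nrf2 tested, 0 were called higher and 1 lower after birth, while in late alveolar septa 1 was called higher and 2 lower. Ephx1, epoxide hydrolase, rose from 20.6 ± 8.03 (SD, n = 8) to 72.1 ± 38.7 FPKM (n = 9, log2 fold change 1.70, adjusted p = 0.000599), with 8 of 9 late libraries above all early ones. Ugdh, which makes UDP-glucuronate, fell at both steps, and the efflux pump Abcc1 fell at the later one.

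The peroxiredoxins apart from Prdx6 went down where they were called. In the list of 19 thioredoxins and other peroxiredoxins, 0 were called higher and 2 lower after birth, 0 and 1 at the onset of septation and 1 and 3 at its end. Prdx1, a cytosolic peroxiredoxin, fell from 91.0 ± 20.4 (SD, n = 4) to 32.6 ± 11.1 FPKM (n = 8, adjusted p = 0.000826), and mitochondrial Prdx3 from 27.1 ± 6.99 to 10.2 ± 4.30 FPKM (adjusted p = 0.00341). Txnip, an inhibitor of thioredoxin, fell from 187 ± 42.8 to 98.4 ± 31.6 FPKM (n = 8 each, adjusted p = 0.0461) at the onset of septation. In late alveolar septa Prdx2, Prdx4 and Sesn3 were called lower and Sesn1, a sestrin, higher, from 8.34 ± 2.95 (n = 8) to 15.7 ± 2.19 FPKM (n = 9, adjusted p = 0.00154).

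Glutathione S-transferases, which conjugate glutathione to reactive compounds, were called in both directions. Of 13 glutathione S-transferases tested, 1 was called higher and 2 lower after birth and 2 higher and 0 lower in late alveolar septa. Gstm1 rose at both steps, from 20.0 ± 15.0 (SD, n = 4) to 35.4 ± 8.26 FPKM (n = 8) and from 33.0 ± 11.2 (n = 8) to 60.2 ± 19.3 FPKM (n = 9). Gstm5 and Gstm2 fell after birth, and Gsta3 rose in the late group. These are families of near-identical genes, and reads may have been divided between them. Of 13 genes of glutathione synthesis and recycling, 1, the amino acid transporter subunit Slc3a2, was called higher after birth and none later. Of the 3 other glutathione peroxidases tested (Gpx2, Gpx7 and Gpx8), none was called in any comparison, and their median log2 fold change from early to late alveolar was -0.78.

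Among 14 enzymes that produce oxidants, 1 was called. Xdh, xanthine dehydrogenase, whose oxidase form makes superoxide and hydrogen peroxide, rose in the same interval as Gpx3 and Sod3, from 9.41 ± 4.14 (SD, n = 8) to 66.1 ± 28.3 FPKM (n = 9). Its log2 fold change was 2.67 (SE 0.33, adjusted p = 1.76e-06), and all 9 late libraries were above all 8 early ones.

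Cofactors and metals were followed as well. Of 9 genes of selenium supply, 1 was called lower after birth, Pstk, which phosphorylates the selenocysteine tRNA, from 10.1 ± 6.21 (SD, n = 4) to 1.79 ± 1.14 FPKM (n = 8, adjusted p = 0.0206). In the late alveolar group Sepsecs, which completes selenocysteine on its tRNA, rose from 5.38 ± 2.82 (n = 8) to 12.4 ± 6.73 FPKM (n = 9, adjusted p = 0.0268), and Sephs1 fell from 9.83 ± 3.07 to 5.52 ± 1.89 FPKM (adjusted p = 0.0183). A further 9 selenoprotein genes of this list were not analysed here. Of 15 genes of heme and iron handling, 2 were called lower after birth, the transferrin receptor Tfrc (36.2 ± 17.0, n = 4, to 12.0 ± 3.93 FPKM, n = 8, adjusted p = 0.000821) and Ireb2, a sensor of iron (43.4 ± 13.4 to 19.2 ± 2.77 FPKM, adjusted p = 0.000356), and none later. The summed erythroid markers, given above, were lower over the same step, and their part in the fall of Tfrc was not tested. Of 11 genes of NADPH supply, 2 were called lower after birth, Idh1 and Idh2, and 0 later. Of 9 genes of copper supply and metallothioneins, 1, the copper pump Atp7b, was called higher in the late alveolar group, from 3.83 ± 2.22 (n = 8) to 10.9 ± 7.12 FPKM (n = 9, adjusted p = 0.0331). Of 16 genes of peroxisome biogenesis, 1, Pex26, was called lower after birth and none later.

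**Figure D5:**
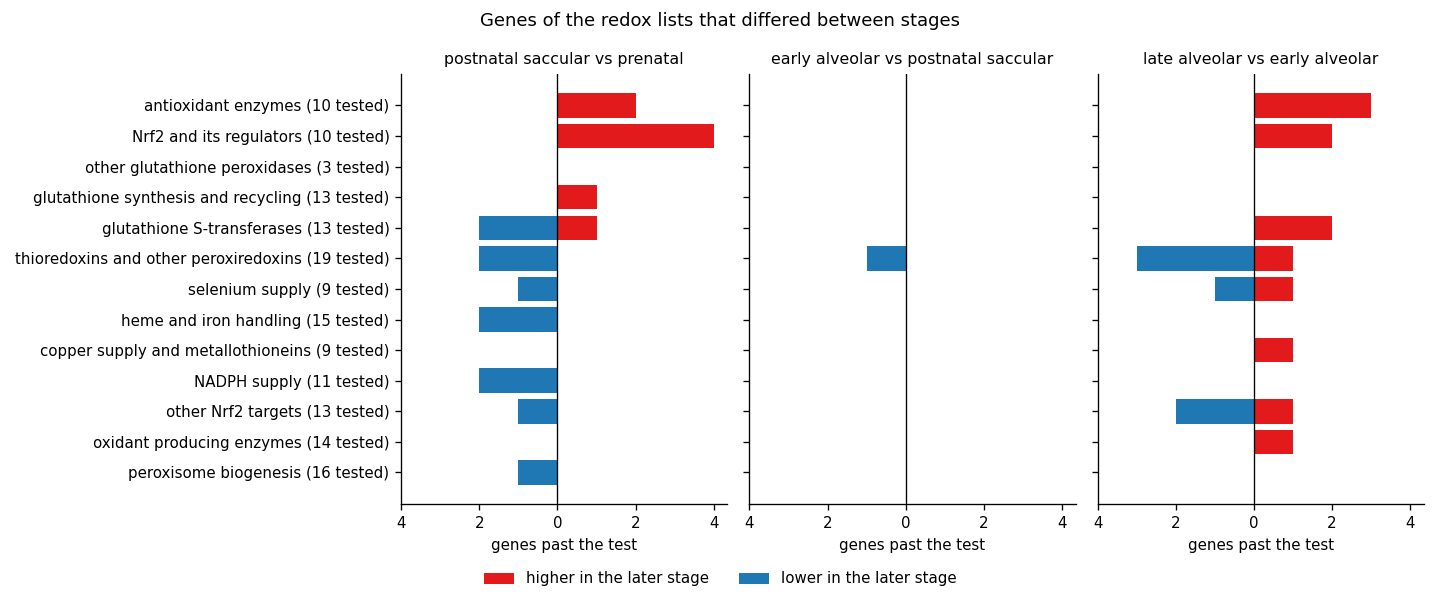
Number of genes of each list called higher (red, right of 0) or lower (blue, left of 0) in the later stage (horizontal axes, genes) in the 3 stage comparisons, with the number tested beside each list name. Nrf2 and its regulators have 4 genes called higher after birth, the thioredoxin list has 3 called lower in the late alveolar group, and 1 gene in all is called at the onset of septation.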

How the data were processed

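Alveolar septa of 29 mice were sequenced after ribosomal RNA depletion and stranded library preparation. Per the labels, STAR 2.5.1 mapped the reads to the mm10 genome and Cufflinks 2.2.1 turned them into the FPKM values that the authors deposited. Further settings and read depth are not given in the sources used here, so the spread between animals stands for the error. Of 24486 lines, 1226 gene IDs stand on more than 1 line, and the line with the highest mean was kept. Genes that reached an FPKM of 1 in 4 or more libraries were tested on log2(FPKM + 1) in R 4.3.3 with limma 3.58.1, its empirical Bayes step following a mean-variance trend, in a single fit of the 4 stage groups, with Benjamini-Hochberg adjustment over all 14616 genes and a threshold of 0.05. The age test used a natural spline (3 degrees of freedom) with birth set at day 19. Confidence intervals are 95% intervals from limma's t distribution. The prenatal ages were compared in a fit of 15 age groups. The test was checked on simulated data. Positions are those of RefSeq on GRCm38.

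The members and gene lists were chosen with earlier results of these data known. Named genes are all members, the called genes or at most 3 of the smallest adjusted p per list and comparison, and the 2 genes most correlated with each member, of which 1 is not reported here. Alternatives were a pseudocount of 0.1, no filter or a minimum FPKM of 5, quantile normalization, median ratio scaling, summed repeated lines, array quality weights, the 2 groups alone, 15 age groups, E18.5 alone, postnatal libraries alone, a spline with 4 degrees of freedom, the removal of the 3 libraries rich in zeros, and the removal of each library singly. Removing each prenatal library from the E18.5 comparison and recomputing the isoenzyme shares, also without E16.5 embryo 9, were chosen after seeing the data. Python 3.11.15, numpy 2.4.6, pandas 2.3.3 and matplotlib 3.10.9 were used.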

Additional observations from a re-analysis of the deposited data

Results flagged for a closer look

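In 4 of the 40 combinations of member and stage group the highest or lowest library lay farther from the rest than Dixon's 95% limit on log2(FPKM + 1), where chance gives about 1 in 20. Gpx3 stood at 27.5 FPKM in E16.5 embryo 9 and between 83.9 and 93.0 FPKM in the other 3 prenatal libraries. Sod1 was listed at 1.72 FPKM in P10 pup a, a library rich in zeros, against 52.5 to 153 FPKM in the other early alveolar libraries. In P1.5 pup d, Cat stood at 49.9 FPKM against 107 to 161 FPKM and Hmox1 at 2.07 FPKM against 7.55 to 13.5 FPKM in the other postnatal saccular libraries. P1.5 pup d was also the lowest postnatal saccular library for Gpx1, Sod1, Sod2 and Sod3. Its total FPKM of 318176 was the lowest of any library.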

How the results depend on the processing

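Sod3 in both of its stage calls, and Gpx3 and Prdx6 from early to late alveolar, kept direction and call under all alternatives run. From prenatal to postnatal saccular the members called higher fell from 2 to 1, Sod3, with a pseudocount of 0.1, with no filter, with median ratio scaling, with array quality weights and against E18.5 alone, and were 1 to 2 with single libraries left out, while those called lower were 0 to 1. From postnatal saccular to early alveolar the members called lower were 2 with array quality weights, 1 in a fit of the 2 groups alone and 1 in a fit of 15 age groups, in place of 0. The age test called 3 to 5 members with single libraries left out, against 4. In the comparison of the prenatal ages no alternative called a member. The causes were not tested, apart from fewer samples where libraries were left out. Without the 3 libraries rich in zeros the counts of members called were the same in every comparison, and the mean Sod3 share of dismutase FPKM in early alveolar septa was 11.2% in place of 17.5%. No paired analysis was possible because the pup letters name animals within an age and pair none across ages. Read depth is unknown, so whether a low FPKM rests on few reads, as for Nqo1, cannot be told.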
